A study of Mus musculus with 16 samples.

Results

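Inositol pyrophosphates are made and destroyed by a small group of enzymes, and 8 of their genes were examined in ventricular myocytes of pressure-loaded mouse hearts. The genes were taken by symbol from the deposited count table, in which 8 of the 35682 rows carried one of the names Nudt4, Nudt3, Ip6k1, Ip6k2, Ppip5k1, Ppip5k2, Ippk and Itpk1. Nudt4 was selected on its CPM values in the comparison of the 2 genotypes, so those values are a description without a test. The other 7 were taken by their place in the same pathway, with results of these data already known. Mice of the B3AR-Tg genotype, a name that stands for a beta-3 adrenergic receptor transgene, and their wild-type (WT) littermates were used, and all animals had undergone TAC (transverse aortic constriction), a narrowing of the aorta that loads the left ventricle. Cells were taken 9 weeks after the surgery from 8 animals of each genotype, which the labels call biological replicates. The labels give no unoperated group, no promoter for the transgene, no age and no sex.

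An inositol pyrophosphate carries a diphosphate group on an inositol ring that is otherwise fully phosphorylated. Inositol hexakisphosphate, the precursor, is built from inositol trisphosphate by a chain of kinases that includes Itpk1 and, at the last step, Ippk. The kinases of the Ip6k and Ppip5k families add diphosphates at different ring positions, and the Ppip5k proteins also carry a phosphatase domain. The Nudix hydrolases encoded by Nudt3 and Nudt4 remove the added phosphates. These molecules are known as signals of phosphate and energy status in many cell types, and they bind the SPX domain of the phosphate exporter Xpr1.

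All 16 libraries held between 5985335 and 14365864 counts, and 10945 genes passed the filter on low counts, with all 8 pathway genes among them. The myocyte label was borne out by its markers, since the 6 myocyte genes Myh6, Tnnt2, Tnni3, Actn2, Ryr2 and Pln summed to between 25640 and 39630 CPM (counts per 1000000 counts of the library) in every animal. Mouse Adrb3 had 0 to 4 counts in a library. The labels do not give the species of the transgene, so these counts do not check the genotype labels. Adgrb3, a different receptor gene, had 0 to 3 counts in WT and 247 to 723 in B3AR-Tg, and the reason was not tested. Over all tested genes, 537 (4.91%) differed at an edgeR adjusted p under 0.05, 222 higher and 315 lower in B3AR-Tg. Scaled by library size alone, the split was 346 higher and 165 lower, and the median log2 fold change of all genes was 0.08 instead of 0.01.

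Of the 8 genes, 2 were higher in B3AR-Tg at that threshold, Nudt4 and Ppip5k2, and 0 were lower. Among all tested genes 2.03% were higher and 2.88% were lower, and nothing is read from the count because the contrast chose Nudt4. The median log2 fold change was 0.03 over the 7 genes other than Nudt4, against 0.01 over all tested genes. At 0.57, Nudt4 was the furthest from 0 of the 8 log2 fold changes.

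**Figure D1:**
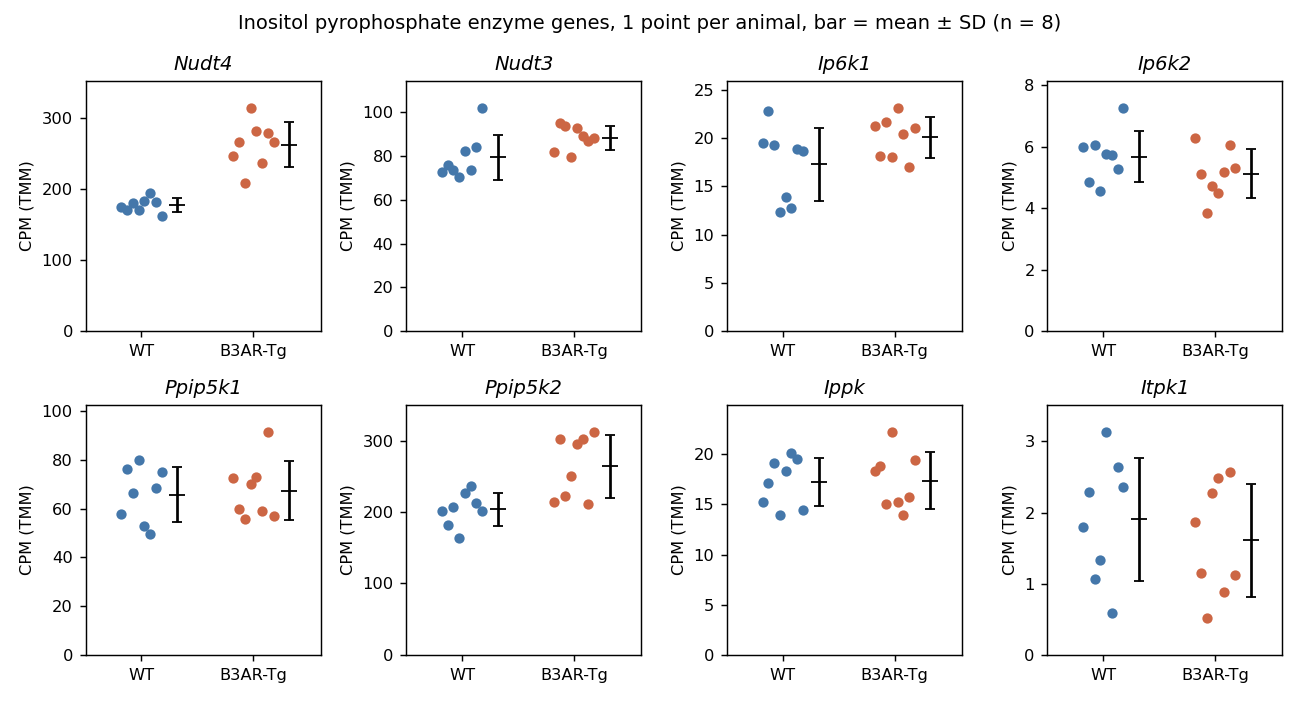
CPM, scaled with TMM factors, of the 8 genes in each of the 16 animals, WT in blue and B3AR-Tg in orange, with the mean ± SD of 8 animals as a black bar. For Nudt4 the lowest B3AR-Tg animal, at 208.5 CPM, lies above the highest WT animal, at 194.6 CPM, and for the other 7 genes the genotypes overlap.

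The hydrolases come first. Nudt4 (ENSMUSG00000020029, chromosome 10, minus strand) encodes a diphosphoinositol polyphosphate phosphohydrolase, which also splits diadenosine polyphosphates. The 250 bases before its transcription start are shown because Nudt4 is the gene with the clearest separation here. They are RefSeq sequence on GRCm38.p6, at chr10:95564147-95564396 on the minus strand, written 5′ to 3′ with each match to the GC box GGGCGG or its reverse complement CCGCCC in capitals.
Nudt4: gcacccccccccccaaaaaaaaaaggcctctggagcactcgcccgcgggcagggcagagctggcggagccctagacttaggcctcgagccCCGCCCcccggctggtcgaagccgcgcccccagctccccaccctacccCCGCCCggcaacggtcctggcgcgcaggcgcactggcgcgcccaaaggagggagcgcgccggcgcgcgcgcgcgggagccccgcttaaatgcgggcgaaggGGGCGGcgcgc
The window held 3 GC boxes, starting 160, 112 and 11 bases before the start, and 32.7% of the 32851 RefSeq promoter windows of this length held at least 1. It held 33 CG dinucleotides, against a median of 6 over all windows, and 76.4% of its bases were G or C, against a median of 52.4%. The cAMP response element TGACGTCA, its core TGACG, the E-box CACGTG, the CCAAT box and the TATA box TATAAA, each searched on both strands, had 0 matches. They occurred in 1.55%, 17.8%, 6.02%, 33.8% and 12.4% of all windows.

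Nudt4 ranged from 162.8 to 194.6 CPM in WT, with a median of 177.4. In B3AR-Tg it ranged from 208.5 to 314.5 CPM, with a median of 266.3. Every B3AR-Tg animal was therefore above every WT animal, a separation that 0.201% of tested genes showed in this direction. Mean levels were 177.4 ± 9.71 and 262.5 ± 32 CPM (SD, n = 8 each), which is 48% more in B3AR-Tg (log2 fold change 0.57, standard error 0.08). The counts behind these levels were 1240 to 3682 per library. The SD between animals was larger in B3AR-Tg than in WT. No transcript of another gene in GENCODE M21 matched the Nudt4 transcript at 90% identity over 200 bases or more, and no exon of another gene overlapped it.

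Nudt3 (ENSMUSG00000024213, chromosome 17) encodes the close relative of Nudt4 with the same activity. It lay between 70.4 and 102 CPM in WT (median 74.8) and between 79.4 and 94.9 CPM in B3AR-Tg (median 88.7). All B3AR-Tg animals were above the WT median, but WT replicate 8, at 102 CPM, was the highest of all 16. The means were 79.3 ± 10.3 and 88.4 ± 5.54 CPM, and the log2 fold change of 0.16 had a 95% interval from −0.01 to 0.32 (edgeR adjusted p = 0.285). The X-linked hydrolase genes Nudt10 and Nudt11 were near the limit of detection. Nudt10 had 1 to 12 counts and was removed by the filter, and Nudt11 averaged 1.31 ± 0.401 CPM (WT) against 1.55 ± 0.636 CPM (B3AR-Tg), a difference that did not pass (log2 fold change 0.26, edgeR adjusted p = 0.638). Their transcripts were 98.7% identical over 685 bases, so how their reads were divided between them is uncertain.

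The genes Ip6k1 and Ip6k2, whose kinases act on inositol hexakisphosphate, did not pass the test. Ip6k1 (ENSMUSG00000032594, chromosome 9) averaged 17.3 ± 3.81 CPM (WT) against 20.1 ± 2.12 CPM (B3AR-Tg), with a log2 fold change of 0.22 and a 95% interval from −0.04 to 0.47 (edgeR adjusted p = 0.350). Its WT animals fell into a lower cluster of 3, at 12.3 to 13.9 CPM, and the others at 18.7 to 22.9 CPM, while all 8 B3AR-Tg animals lay between 17.1 and 23.1 CPM. Ip6k2 (ENSMUSG00000032599, chromosome 9) was at 5.68 ± 0.838 and 5.13 ± 0.797 CPM (log2 fold change −0.14, 95% interval −0.42 to 0.14, edgeR adjusted p = 0.616).

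Ip6k3, the family member known from skeletal muscle and heart, was not among the 8 genes but acts on the same substrate. WT animals spanned 9.12 to 17.5 CPM, and B3AR-Tg animals spanned 6.99 to 13.1 CPM, so the genotypes overlapped. The means were 12.7 ± 3.08 and 9.13 ± 2.06 CPM, and the log2 fold change of −0.48 (standard error 0.16) did not pass the threshold (edgeR adjusted p = 0.0821). DESeq2 placed it past the threshold (adjusted p = 0.0483), as did edgeR without B3AR-Tg replicate 7 (adjusted p = 0.0311). Those were the only 2 of 25 other settings of the genotype fit in which Ip6k3 passed. In 23 it did not pass, and the highest value was an edgeR adjusted p of 0.233. DESeq2 also called more of all tested genes, 804 against 537 with edgeR.

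The paired kinases Ppip5k1 and Ppip5k2 act on the products of the Ip6k enzymes. Ppip5k2 passed the test and Ppip5k1 did not, and the difference between their changes was not tested. Ppip5k2 (ENSMUSG00000040648, chromosome 1) spanned 163.5 to 236.7 CPM in WT (median 204.2), whereas B3AR-Tg animals spanned 211 to 312.7 CPM (median 272.7). Of the B3AR-Tg animals, 5 were above every WT animal, and replicates 1, 3 and 7, at 214, 222.4 and 211 CPM, lay within the WT range. Mean levels were 203.8 ± 23.5 and 263.8 ± 44.0 CPM, and Ppip5k2 rose by this test (log2 fold change 0.37, standard error 0.10, edgeR adjusted p = 0.0376). That call was close to the threshold. It was lost without any 1 of WT replicates 1, 2, 4 and 8 or B3AR-Tg replicates 2, 5, 6 and 8, with adjusted p-values from 0.0637 to 0.0845 and log2 fold changes from 0.33 to 0.37.

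Ppip5k1 (ENSMUSG00000033526, chromosome 2) spanned 49.7 to 80.1 CPM in WT (median 67.4), and its B3AR-Tg values spanned 55.6 to 91.7 CPM (median 65.1). Its means were 65.8 ± 11.3 and 67.4 ± 12.1 CPM, with a log2 fold change of 0.03 and a 95% interval from −0.21 to 0.27 (edgeR adjusted p = 0.916). The genotypes overlapped over most of their range. In the annotation its exons share 272 bases with Map1a on the opposite strand, and those of Ppip5k2 share 84 bases with Gin1 on the opposite strand. Map1a had 268 counts in all libraries together against 10821 for Ppip5k1. On the same strand, exons of Nudt3 share 416 bases with RPS10-NUDT3, which had 51 counts in all against 13472 for Nudt3. Those of Ip6k1 share 942 bases with Gm20662, which had 13 counts against 3029 for Ip6k1. Those of Itpk1 share 109 bases with Gm28373, which has no row in the deposited counts.

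The genes that supply the precursor did not pass the test. Ippk (ENSMUSG00000021385, chromosome 13), which adds the last phosphate of inositol hexakisphosphate, averaged 17.2 ± 2.42 CPM (WT) against 17.3 ± 2.83 CPM (B3AR-Tg), with a log2 fold change of 0.01 and a 95% interval from −0.22 to 0.24 (edgeR adjusted p = 0.974). Its exons share 315 bases with Cenpp on the opposite strand, which had 392 counts in all against 2723 for Ippk. Itpk1 (ENSMUSG00000057963, chromosome 12), a kinase of inositol trisphosphate and tetrakisphosphate, was low. It had 4 to 33 counts per library and lay at 1.90 ± 0.860 and 1.61 ± 0.788 CPM (log2 fold change −0.24, 95% interval −0.94 to 0.45, edgeR adjusted p = 0.741), so a difference below the size of that interval was not detectable at this depth. Ipmk, the multikinase earlier in the chain, had a log2 fold change of 0.11 (edgeR adjusted p = 0.686). Minpp1, which strips phosphates from inositol hexakisphosphate, had one of 0.09 (edgeR adjusted p = 0.771).

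Levels were compared between genes per kilobase of the longest coding transcript in GENCODE M21. In WT, Nudt4 was the highest of the enzyme genes at 55.3 ± 3.03 CPM per kilobase. Nudt3 followed at 35.7 ± 4.64 and Ppip5k2 at 32.7 ± 3.76 CPM per kilobase, with ranges over animals that overlapped. Ppip5k1 was lower, at 11.9 ± 2.04 CPM per kilobase, and did not overlap its neighbours in the order. Ip6k3, Ippk, Ip6k1, Minpp1, Ip6k2 and Ipmk lay between 5.43 and 2.66 CPM per kilobase, and each overlapped the next. Itpk1, Nudt11 and Nudt10 were below 1 CPM per kilobase. In B3AR-Tg, Nudt4 stood at 81.8 ± 9.97 CPM per kilobase, and Ppip5k2 (42.3 ± 7.05) and Nudt3 (39.8 ± 2.49) overlapped. The lowest B3AR-Tg animal for Nudt4, at 65.0 CPM per kilobase, was above every value of any other gene shown. Which transcripts the animals used was not analysed here. With the length of all annotated exons instead, Nudt3 came to 17.2 and Ppip5k2 to 14.2 CPM per kilobase in WT, and Nudt4 was again the highest.

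**Figure D2:**
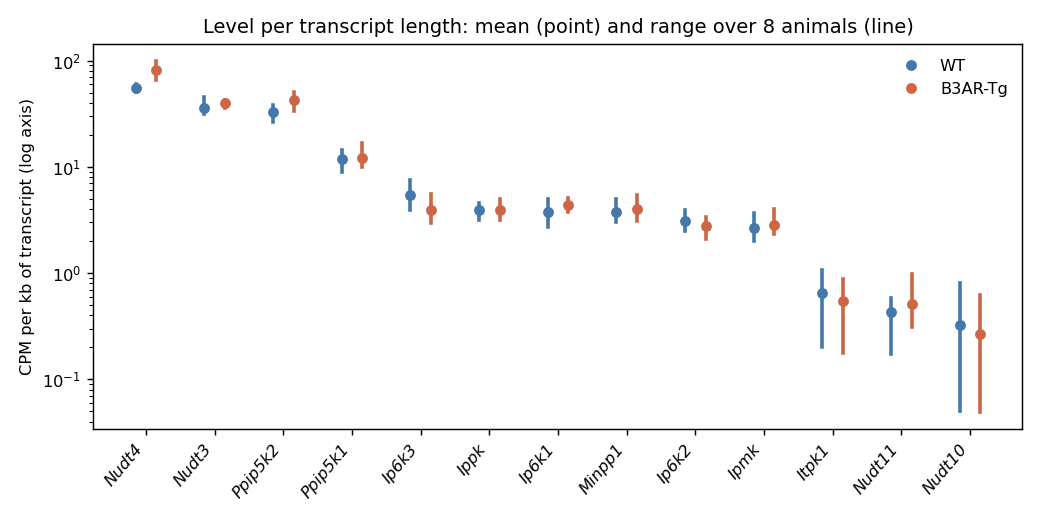
CPM per kilobase of the longest coding transcript on a log axis, for the 8 genes and 5 relatives with the same substrates or of the same families. Points are means and lines the range over 8 animals, WT in blue and B3AR-Tg in orange; Nudt4 is highest in both genotypes, at 55.3 and 81.8.

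The wider inositol phosphate pathway was described with a list of 41 other genes, taken by function, of which 32 were tested. In it 1 gene rose, 1 fell and 30 did not pass, beside 2.03% higher and 2.88% lower over all tested genes, so the count is near the background. The median log2 fold change was −0.02, and 14 of the 32 values were positive, against 51.1% over all tested genes. Slc20a2, a sodium-phosphate importer, rose in B3AR-Tg (118.5 CPM in WT, 150.1 CPM in B3AR-Tg), with a log2 fold change of 0.34 (standard error 0.09, edgeR adjusted p = 0.0302). It did not pass without any 1 of WT replicates 1, 4 and 8 or B3AR-Tg replicates 2, 5 and 8 (adjusted p from 0.0550 to 0.0667). Plcd3, a phospholipase C that releases inositol trisphosphate from membrane lipid, fell in B3AR-Tg (5.46 CPM in WT, 2.96 CPM in B3AR-Tg), with a log2 fold change of −0.89 (standard error 0.20, edgeR adjusted p = 0.0138).

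By role, 0 of 4 tested kinases, 0 of 10 phosphatases, 0 of 2 inositol trisphosphate receptors and 0 of 3 genes of inositol supply passed the edgeR test. At an unadjusted p under 0.05 these numbers were 1, 2, 1 and 1, a threshold that 19.3% of all tested genes passed. Of 9 phospholipases C, 1 passed and 2 of the 9 log2 fold changes were positive. Of 4 phosphate and polyphosphate genes, 1 passed. The phosphate exporter Xpr1 had a log2 fold change of −0.16 (edgeR adjusted p = 0.439). Chosen after their values were seen, Slc20a1, a second phosphate importer (log2 fold change −0.49, edgeR adjusted p = 0.0553), and Isyna1, which makes inositol from glucose phosphate (0.62, edgeR adjusted p = 0.0803), lay just outside the threshold. DESeq2 placed both past it (adjusted p = 0.0265 and 0.0416). Over 25 other settings of the genotype fit, DESeq2 among them, Slc20a1 passed in 5 and Isyna1 in 3.

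Other Nudix hydrolases, which act on nucleotides and other diphosphates, were counted too. Of 19 such genes, all tested, 0 passed with edgeR, 0 with DESeq2 and 0 with limma voom, and 2 had an unadjusted edgeR p under 0.05. Over all tested genes the edgeR shares were 4.91% adjusted and 19.3% unadjusted, and 0 of 19 is near the adjusted share. Of all 10945 genes DESeq2 called 804 and limma voom called 706. Their log2 fold changes ran from −0.48 to 0.31 with a median of −0.06. The value of Nudt4, 0.57, lay above that range, but nothing is read from this because the contrast chose Nudt4.

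**Figure D3:**
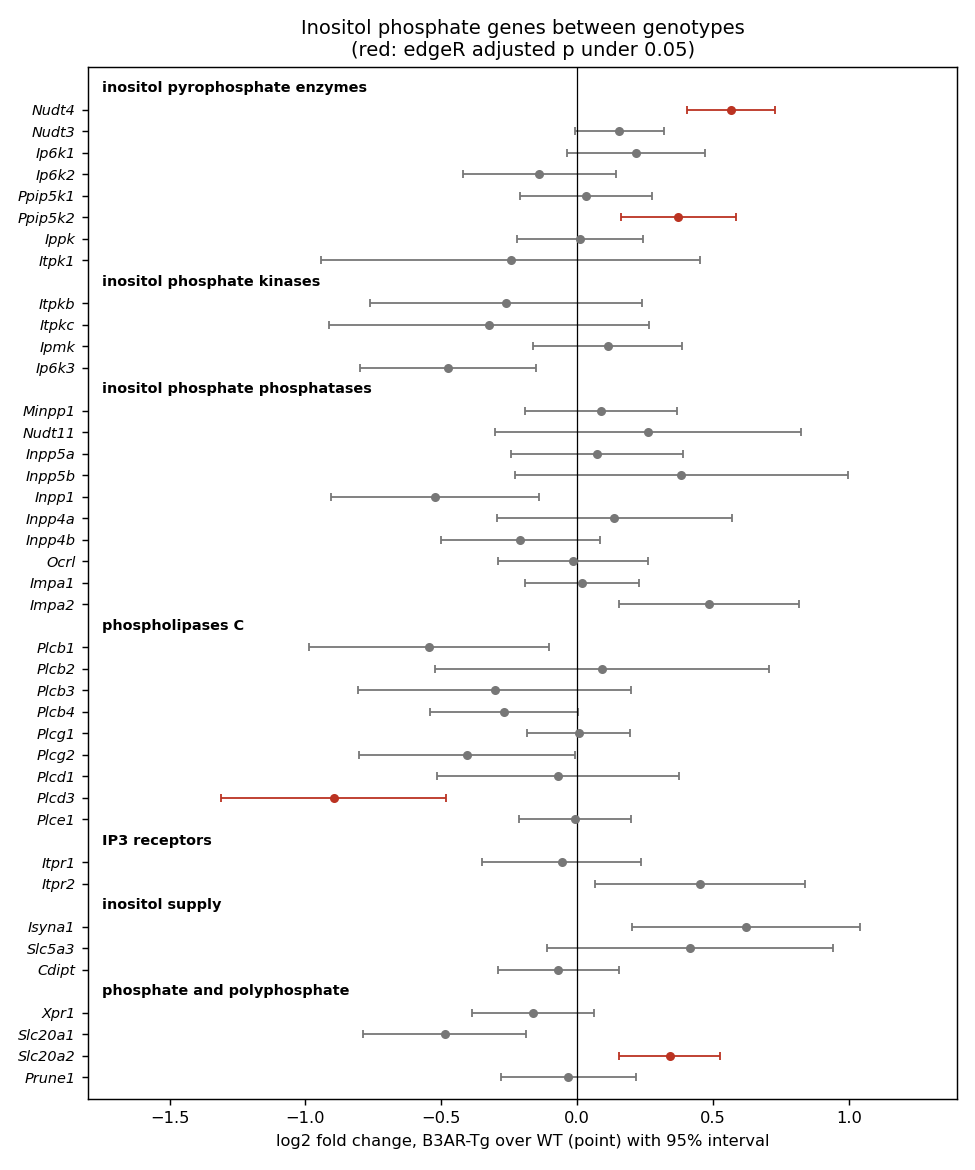
Log2 fold change of B3AR-Tg over WT with its 95% interval from the edgeR fit, for the 8 genes (top) and the 32 tested genes of the wider pathway by role, with red for an adjusted p under 0.05. Nudt4 (0.57), Ppip5k2 (0.37) and Slc20a2 (0.34) are to the right of 0 and Plcd3 (−0.89) is to the left. Nudt4 was chosen on this contrast, so its color is a description and not a test.

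Markers of other cells and of cardiac load moved with genotype, and their values stand beside the results above. In bulk RNA, fewer cells of a type and less RNA per cell cannot be told apart. Beside the counts that follow, 2.88% of all tested genes were lower in B3AR-Tg and 2.03% were higher. An unadjusted edgeR p under 0.05 was reached by 19.3%. Of 6 fibroblast markers 4 were lower in B3AR-Tg, with a summed level of 37.8 to 119.3 CPM in WT and 11.04 to 46.5 CPM in B3AR-Tg. Of 6 endothelial markers 2 were lower (77.5 to 113.9 and 36.1 to 142.9 CPM). Of 6 leukocyte markers 2 were tested and 0 passed with edgeR, with 1 at an unadjusted p under 0.05 (4.27 to 10.8 and 0.795 to 6.03 CPM). Of 5 genes listed as mural cell markers 1, Abcc9, was higher (means 334.5 and 455.2 CPM). It made up most of the summed level (300.6 to 482.3 and 423.8 to 568.2 CPM), so that sum is not read as a mural cell level. Which cells the Abcc9 counts came from was not tested. The log2 fold changes of the other 4, Pdgfrb, Myh11, Rgs5 and Kcnj8, were −0.75, −0.58, −0.34 and −0.09, none past the threshold. None of these markers was at 0 counts in all libraries. A further fit took the mean log2 level of the 19 tested markers, Abcc9 among them, as a covariate. In it the log2 fold change of Nudt4 was 0.62 (standard error 0.11) and that of Ppip5k2 was 0.23 (standard error 0.14, edgeR adjusted p = 0.441). The same fit gave 0.36 for Slc20a2 and −1.10 for Plcd3, neither past the threshold (edgeR adjusted p = 0.182 and 0.0836).

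All 6 load markers (Nppa, Nppb, Myh7, Acta1, Ankrd1 and Xirp2) were lower in B3AR-Tg, beside 2.88% of all tested genes. A load score, their mean log2 CPM, ran from 9.74 to 11.6 in WT and from 8.05 to 9.99 in B3AR-Tg. The ranges met in 1 B3AR-Tg animal, replicate 7, at 9.99. In that animal Nudt4 was at 278.7 CPM, above all WT animals, and Ppip5k2 was at 211 CPM, within the WT range. The WT animal with the lowest score, replicate 3, had Nudt4 at 180.2 CPM. For Nudt4 every B3AR-Tg animal was above every WT animal, and the gene was chosen on that contrast. Nothing about load is therefore read from its level in these animals. With the load score as a covariate, Nudt4 did not pass the threshold, with a log2 fold change of 0.42 (standard error 0.13). The log2 fold change was −0.04 for Ppip5k2 (standard error 0.14, edgeR adjusted p = 0.958). It was 0.49 for Ppip5k1 (standard error 0.16, edgeR adjusted p = 0.384), against 0.03 without the covariate. For Ip6k3 it was −0.00058 (standard error 0.24, edgeR adjusted p = 0.999), against −0.48 without the covariate. That fit, chosen after the data had been seen, left 7 of all 10945 genes past the threshold.

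Animals of one genotype also differed in the load score, which allowed a comparison that the choice of the genes had not used. The score is a level of marker transcripts, and no pressure or heart weight was analysed here. The load score was centred on its genotype means, and the slope on it was fitted to the counts with edgeR over all genes, with genotype in the model. Ppip5k2 went down as the score went up, by 0.23 log2 units per unit of score (standard error 0.06, edgeR adjusted p = 0.0473). Ppip5k1 had the opposite sign, 0.25 per unit (standard error 0.07, edgeR adjusted p = 0.0558). Of the 8 genes 1 thus passed, against 3.12% of all tested genes. The slope was −0.20 for Ippk (standard error 0.07, edgeR adjusted p = 0.180) and −0.08 for Nudt4 (standard error 0.06, edgeR adjusted p = 0.505).

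Correlations over the 16 animals used each gene's log2 CPM and the load score, both centred on their genotype means. Ppip5k2 had r = −0.74 and rho = −0.69 with the load score (permutation p = 0.00043 and 0.0027). Within WT r was −0.84 and within B3AR-Tg −0.71 (exact permutation p = 0.00513 and 0.0383, n = 8 each). Without the animals farthest from the median, WT replicate 2 and B3AR-Tg replicate 7, r was −0.66. With library size scaling, or with Nppa alone as the score, the relation of Ppip5k2 was weaker. In both settings it did not pass after adjustment over the relations tested. For Ppip5k1, r was 0.69 and rho 0.66 (permutation p = 0.00626 and 0.0105). Its r was 0.81 within WT and 0.54 within B3AR-Tg (exact permutation p = 0.0231 and 0.172). Without the same animals its pooled r was 0.52. Within B3AR-Tg its rho was 0.21, and replicate 7 had both the highest score and the highest Ppip5k1 of that genotype. After centring, Ppip5k1 had r = −0.64 and Ppip5k2 r = 0.43 with the mitochondrial share of counts. With the log2 library total, Ppip5k1 had r = 0.31 and Ppip5k2 r = −0.30. The part of share and total in the relations with the load score was not tested.

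For Ippk, whose edgeR slope did not pass, r was −0.62 and rho −0.66 with the load score (permutation p = 0.0128 and 0.00821). Its r was −0.72 without those animals and −0.39 with library size scaling. Nudt4 had r = −0.42 and rho = −0.51 (permutation p = 0.0841 and 0.0413). Its r was −0.82 within WT and −0.29 within B3AR-Tg (exact permutation p = 0.0118 and 0.478), and the difference between those values was not tested. Without WT replicate 2 and B3AR-Tg replicate 7 the pooled r of Nudt4 was −0.63, and with library size scaling of all 16 animals it was −0.03. Centred Nudt4 and Ippk had r = −0.46 each with the log2 library total. The other 4 genes had r between −0.04 and 0.21. These were 8 relations, and the permutation p-values are two-sided and unadjusted, the adjusted ones being those of the edgeR slopes.

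**Figure D4:**
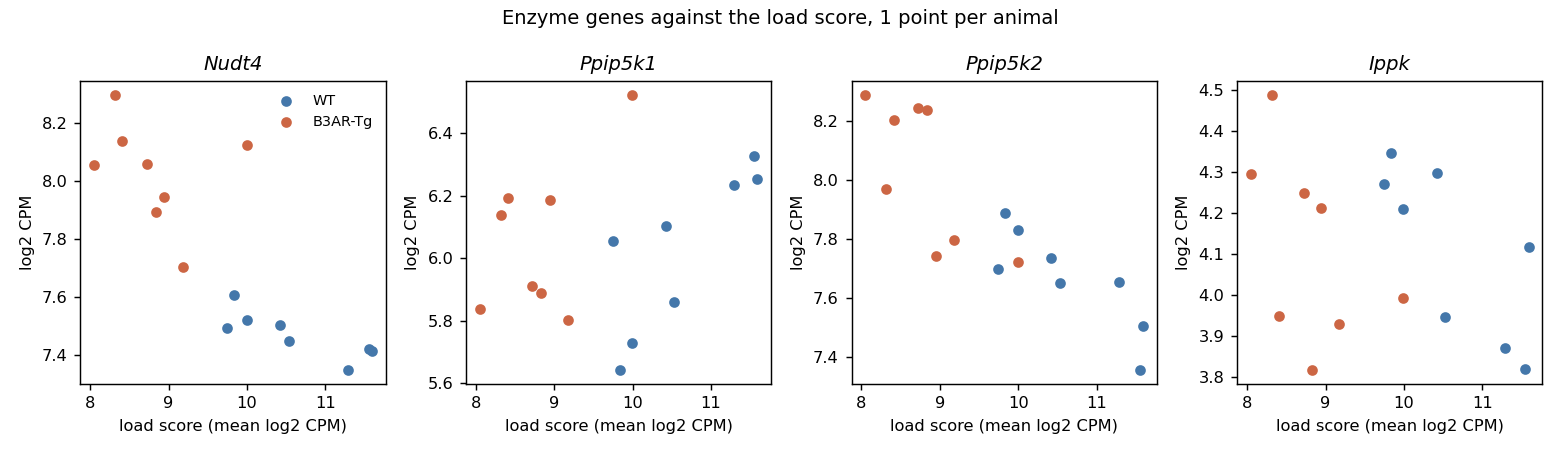
Log2 CPM of Nudt4, Ppip5k1, Ppip5k2 and Ippk (vertical) against the load score, the mean log2 CPM of 6 load markers (horizontal), 1 point per animal, WT in blue and B3AR-Tg in orange. After centring on genotype Ppip5k2 falls with the score (r = −0.74) and Ppip5k1 runs the other way (r = 0.69, with 0.81 in WT and 0.54 in B3AR-Tg). With library size scaling the relation of Ppip5k2 was weaker. For Nudt4, which was chosen on the genotype contrast, every B3AR-Tg point lies above every WT point.

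The ratio of Ppip5k2 to Ppip5k1 was taken after these opposite slopes had been seen. On the log2 scale of CPM it was 1.64 ± 0.41 in WT and 1.97 ± 0.43 in B3AR-Tg (SD, n = 8), and it ranged from 1.03 to 2.25 and from 1.20 to 2.45. Centred on genotype, it had r = −0.78 with the load score over the 16 animals. No test is given for that value, since the ratio was built from genes already seen to slope in opposite directions on the same score.

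The other 7 genes were set against Nudt4 in the same way. Ippk was nearest, with r = 0.63 and rho = 0.67 (permutation p = 0.0113 and 0.00749). It did not pass after Benjamini-Hochberg adjustment over the 7 relations (adjusted p = 0.0789 and 0.0524), and r was 0.51 without B3AR-Tg replicates 3 and 4, the animals farthest from the median of Nudt4. For Nudt3, Ip6k1, Ip6k2, Ppip5k1, Ppip5k2 and Itpk1, r lay between −0.35 and 0.40 (permutation p from 0.0864 to 0.703, unadjusted). Ppip5k1 had r = −0.80 with Nudt4 within WT and 0.54 within B3AR-Tg (exact permutation p = 0.0162 and 0.176), and the difference was not tested.

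Among all tested genes, those most like Nudt4 over the 16 animals after centring were Bcor (r = 0.88), Frmd4a (0.87), Amer1 (0.86), Stag1 (0.84) and Irf1 (0.83). Bcor encodes a transcriptional corepressor, Stag1 a cohesin subunit and Irf1 an interferon-regulated transcription factor. The most opposite were Bri3 (r = −0.86), Ddx28 (−0.86), an RNA helicase of mitochondria, and Grpel2 (−0.86), a cofactor of mitochondrial protein import. All 8 were chosen for these values, so no test is given. The median r over all genes was −0.00, and 90% lay between −0.56 and 0.57. For these 8 genes the genotypes overlapped, and the edgeR adjusted p between genotypes ran from 0.0849 to 0.937. The likeness leaned on the highest and lowest B3AR-Tg animals for Nudt4, replicates 4 and 3, without which the 5 values of r fell to between 0.62 and 0.70. B3AR-Tg replicate 4 was also the smallest library.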

How the data were processed

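Ribosome-depleted stranded total RNA of myocytes isolated by Langendorff perfusion and plated for an hour was sequenced from both ends, per the labels' protocols. The authors deposited whole-number counts per gene with no normalization. The submitters' processing notes name Salmon, a tool that estimates counts, and GRCm39, without saying what each was used for. Whether the counts are rounded estimates, the annotation release and the strand setting are not given in the sources used here.

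Counts as deposited were fitted in edgeR 4.0.16 (R 4.3.3) and tested by quasi-likelihood, with genotype as the only term, filterByExpr (minimum count 10, minimum total 15), TMM factors and Benjamini-Hochberg adjustment over the 10945 tested genes. Standard errors are the log2 fold change divided by the square root of F, and intervals use the t distribution of the fit. CPM (counts per 1000000 counts of the library) is scaled with TMM factors, and log2 CPM uses a prior count of 2. A level of 3 counts corresponds to 0.201 to 0.487 CPM and covers counting error only. P-values measure the spread between these animals. Correlations used 100000 permutations within genotype, or all orders of the 8 animals. Alternatives were RLE, upper quartile and library size scaling, other filters, DESeq2 1.42.0, limma 3.58.1 voom with sample weights, a replicate block, covariates and leaving out each animal. No pair of libraries within a genotype agreed within sampling noise (chi-square per gene of 5.82 or more over 56 pairs).

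The pathway genes, lists and tests were chosen with earlier results of these data known. The rule for names took the 8 genes, 5 relatives, list members past the threshold (up to 6 each way), the 5 genes most like Nudt4 and the 3 most opposite. Gene lengths, chromosomes and overlaps come from GENCODE M21 on GRCm38, matched by gene ID, and transcripts were compared with BLAST 2.17.0. Promoter windows are from RefSeq on GRCm38.p6, matched by symbol. On simulated data with 200 of 10945 genes changed, edgeR recovered 28% at an absolute log2 fold change of 0.5 and 87% at 1, with 6.67% and 3.87% of calls false.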

Additional observations from a re-analysis of the deposited data

How the results depend on the processing

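The 25 other planned settings of the genotype fit leave out the load score covariate. Over them the log2 fold change of Nudt4 ran from 0.53 to 0.65. Ppip5k2 kept its sign in all 25 and passed in 15. Of the 8 genes 5 kept their sign throughout, and Ippk, Itpk1 and Ppip5k1, whose differences did not pass, changed theirs. With a replicate block, 230 genes passed, 1 of the 8 genes (Nudt4, with 0.36 and adjusted p = 0.0826 for Ppip5k2) and 1 of the wider list. The shared numbers belong to different animals. Same-numbered animals had correlations between −0.22 and 0.09, and 0 of the 16 correlated best with their own number. With the other-cell covariate 32 genes passed, 1 of the 8 and 0 of the wider list. With the load score, an addition made after seeing the data, these numbers were 7, 0 and 0. In that fit Nudt4 lay below the range given above and did not pass, and the log2 fold change of Ppip5k2 turned to −0.044. DESeq2 called 804 of all 10945 genes and 5 of the wider list. Library size scaling called 511 of all genes and 1 Nudix gene, Nudt7. Leaving out 1 animal gave 272 to 675 genes, 1 to 2 of the 8 and 1 to 4 of the wider list. The lowest total came without WT replicate 4, and B3AR-Tg replicates 5 (277) and 8 (345) also lowered it by over 1.5 times. The cause was not tested for any of these.

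By permutation with adjustment over the 8 relations, 3 genes followed the load score (Ppip5k2, Ppip5k1 and Ippk), 1 with library size scaling, 0 with Nppa alone as the score, 1 by the edgeR slopes and 1 to 3 without 1 animal. The lowest number came without WT replicate 4 or 6. With Nppa alone the r values were −0.51 for Ppip5k2, 0.61 for Ppip5k1 and −0.60 for Ippk. With library size scaling they were −0.54 for Ppip5k2 and −0.39 for Ippk, neither past the threshold. Of the 7 genes set against Nudt4, 0 passed, 2 (Ippk and Itpk1) passed with library size scaling, and 0 to 1 passed without 1 animal, the 1 being Ippk without B3AR-Tg replicate 5 or 7. The low counts of Itpk1, Nudt10 and Nudt11 limit what their values can show.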
